A study of Arabidopsis thaliana with 40 samples.

Results

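The Argonaute (*AGO*) family of *Arabidopsis thaliana* comprises the 10 genes *AGO1* to *AGO10*, which were found by their gene identifiers among the 64790 features (33601 genes, the rest transposable elements) of each sense and antisense table. All 10 genes had a row in every table. *AGO8* (AT5G21030) carries no symbol in the reference annotation and is named here by its place in the family list. Unopened flower buds of 30-day-old untreated, soil-grown plants were profiled by smRNA-seq (inserts of 15 to 50 nt) and by total RNA-seq (fragments of 140 to 250 nt).

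The 8 mutants carried alleles of an RNA-dependent RNA polymerase gene (*rdr1–1*, *rdr2–1*, *rdr3–1*, *rdr4–1*, *rdr5–1* and *rdr6–11*) or of a cofactor gene (*sgs3–11* and *rdm12–1*), and the control was Columbia-0 (Col-0), the common laboratory wild type. Each mutant had 2 libraries per assay. Both cofactor mutants and all polymerase mutants other than *rdr3* were analysed with one pair of Col-0 libraries, 16 libraries per assay. *rdr3* had a Col-0 pair of its own, 4 libraries per assay. The first of these is named the set of 7 mutants and the second the *rdr3* set.

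The values described are the authors' mean abundances, in log2 CPM (read counts scaled to the size of the library), so that 0 stands for 1 CPM. This mean was 1 value per gene for a whole set of libraries: it was the same, value for value, in the tables of all 7 mutants. It averages mutants and Col-0 together. A level of a single genotype, a mutant effect, a spread between replicates and a test were therefore not available from it, and the depth of each library is unknown. The *rdr3* set differs from the set of 7 mutants in its genotypes and in its libraries, and these cannot be told apart.

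Argonaute proteins bind small RNAs and use them as guides to find complementary RNAs. Guided slicing or translational repression of mRNAs is the work of AGO1 and its relatives, whereas AGO4, AGO6 and AGO9 carry siRNAs to chromatin in RNA-directed DNA methylation. Several *AGO* mRNAs are themselves microRNA targets. miR168 guides AGO1 to the *AGO1* mRNA, a feedback loop on the main effector of the pathway, and miR403 targets *AGO2*. A cleaved mRNA can be copied by RDR6 with SGS3 into double-stranded RNA, from which Dicer-like enzymes cut secondary siRNAs of both strands.

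The microRNA sequences and the *AGO* windows that pair with them are shown because the smRNAs of *AGO1* and *AGO2* lay at or next to these windows. Sequences were read from the RefSeq TAIR10.1 genome and run 5′ to 3′. Capitals mark the seed of the microRNA (bases 2 to 8) and, in each mRNA window, the bases opposite the seed.
miR168a-5p: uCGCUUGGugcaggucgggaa
AGO1 window: uucccgagcugcaUCAAGCUa
miR403-3p: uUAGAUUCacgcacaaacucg
AGO2 window: ggaguuugugcguGAAUCUAa
AGO3 window: gauguuugugcguGAAUCUAa

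miR168b-5p had the same sequence as miR168a-5p. The *AGO1* window (chr1:17891529-17891549, minus strand) lay in the coding sequence of exon 2 of 22, 1083 nt from the 5′ end of the gene, with 2 mismatches and 1 G:U pair to miR168. The *AGO2* window (chr1:11185223-11185243, plus strand) lay in the 3′ UTR, in exon 3 of 3, and had 1 mismatch to miR403. The *AGO3* window (chr1:11192399-11192419, plus strand) also lay in the 3′ UTR, in exon 4 of 4, and had 3 mismatches. Each window was scored with 1 per mismatch and 0.5 per G:U pair, both doubled at microRNA positions 2 to 13. The limits used next are the scores of *AGO1* (4) and *AGO3* (3) themselves, so these genes pass them by construction. Of 27444 coding genes, *AGO1* was the only one with a miR168 window scoring 4 or less (0.00364% of genes). *AGO2* and *AGO3* were the only ones with a miR403 window scoring 3 or less (0.00729%). Other microRNAs also had windows scoring below 4: miR5021 in *AGO7* (2), miR865-3p in *AGO3* (3.5) and miR840-3p in *AGO5* (3.5). The best miR168 window in *AGO10*, the closest relative of *AGO1*, scored 10.5. A match of letters is a description and not evidence of cleavage.

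*AGO1* (AT1G48410, chr1:17885633-17892632, minus strand) had the highest transcript level of the family. Its sense total RNA stood at 5.52 log2 CPM (45.9 CPM) in the set of 7 mutants and at 4.82 log2 CPM (28.3 CPM) in the *rdr3* set. It was higher than 99.2% of the 33601 genes in the set of 7 mutants and 98.9% in the *rdr3* set. Per kb of its longest transcript, *AGO1* had 12.7 CPM in the set of 7 mutants and 7.83 CPM in the *rdr3* set, which was 2.23 and 2.28 times the level of the next gene, *AGO4*.

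Among the genes of RNA-directed DNA methylation, *AGO4* (AT2G27040, chr2:11536502-11542391, minus strand) had 5.68 CPM per kb in the set of 7 mutants and 3.44 CPM per kb in the *rdr3* set. *AGO9* (AT5G21150, chr5:7192239-7198381, plus strand), which acts in the ovule to restrict the number of gamete precursors, had 2.65 and 1.58 CPM per kb in the same order of sets. *AGO6* (AT2G32940, chr2:13971916-13977521, minus strand), which acts in meristems, stood far lower, at 0.308 and 0.140 CPM per kb. *AGO4*, *AGO9* and *AGO6* thus held places 2, 4 and 8 of the family in both sets.

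*AGO10* (AT5G43810, chr5:17610744-17616907, plus strand), which sequesters miR165 and miR166 in the shoot meristem, had 4.95 CPM per kb in the set of 7 mutants and 1.91 CPM per kb in the *rdr3* set. *AGO5* (AT2G27880, chr2:11871378-11876989, plus strand), known from the germ line and its surrounding tissue, had 1.73 and 1.18 CPM per kb. *AGO7* (AT1G69440, chr1:26101407-26105328, minus strand), the partner of miR390 in the production of *TAS3* siRNAs, had 0.951 and 0.633 CPM per kb. These genes fell between *AGO4* and the lowest members.

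*AGO2* (AT1G31280, chr1:11181504-11185396, plus strand), an antiviral Argonaute, had 1.03 CPM per kb in the set of 7 mutants and 0.626 CPM per kb in the *rdr3* set. Its neighbour and close relative *AGO3* (AT1G31290, chr1:11188120-11192585, plus strand) starts 2723 nt further on, with no annotated gene between them, and had 0.248 and 0.108 CPM per kb. In *AGO3*, 4.87% of 50-nt windows occur more than once in the genome, against 0% in the other members, and reads from such windows could not be assigned to it. Of 21-nt windows, nearer the size of smRNAs, 13.3% were repeated in *AGO3*, 4.36% in *AGO2* and at most 1.49% in the other members. *AGO8* (chr5:7139817-7144272, minus strand), generally regarded as a pseudogene, stood at the lowest value of the sense total RNA table in both sets, the value that features without reads share.

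The order of the family per kb was *AGO1*, *AGO4*, *AGO10*, *AGO9*, *AGO5*, *AGO2*, *AGO7*, *AGO6*, *AGO3* and *AGO8* in the set of 7 mutants. In the *rdr3* set 8 of the 10 places held the same gene, and *AGO7* and *AGO2* changed places, with a 1.01-fold step between them. *AGO4* over *AGO10* was a 1.15-fold step in the set of 7 mutants and a 1.80-fold step in the *rdr3* set. Without a spread over libraries, it cannot be said which neighbours in this order differ.

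**Figure D1:**
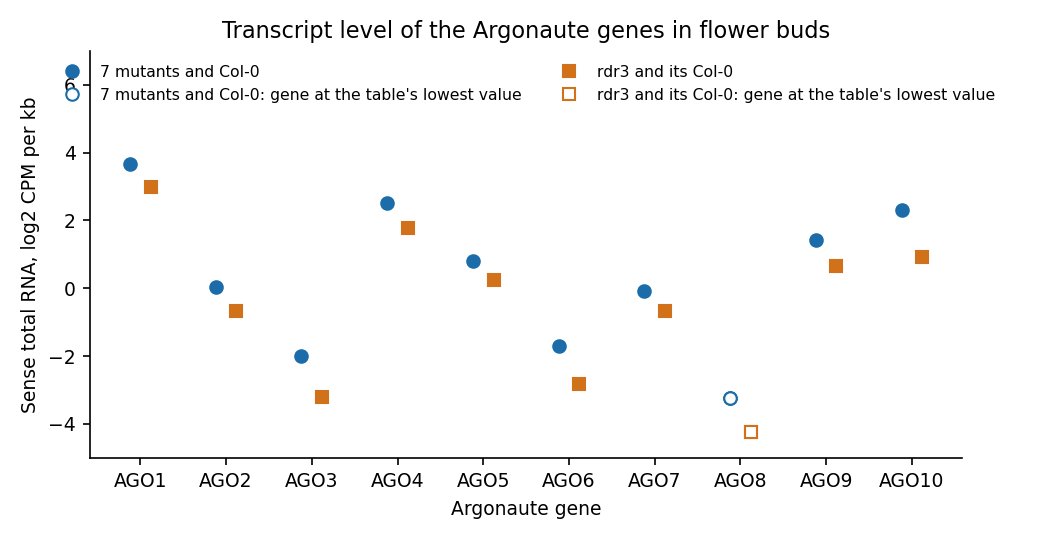
Sense total RNA of each Argonaute gene in log2 CPM per kb of its longest transcript (y axis), as the authors' mean over the 7 mutants and Col-0 (circles) and over *rdr3* and its Col-0 (squares). Open symbols mark *AGO8*, which stood at the lowest value of both tables. *AGO1* is highest at 3.67 and 2.97 log2 CPM per kb.

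In all, 7 of the 10 genes reached 1 CPM in sense total RNA in each set, beside 43.1% of all genes in the set of 7 mutants and 37.1% in the *rdr3* set. *AGO3*, *AGO6* and *AGO8* did not. *AGO3* and *AGO6* were close to the limit in the set of 7 mutants, at 0.972 and 0.961 CPM. Over the 11666 genes that reached 1 CPM in both sets, sense total RNA was a median of 0.66 log2 units higher in the set of 7 mutants than in the *rdr3* set. Relative to this shift, *AGO10* was 0.72 log2 units higher in the set of 7 mutants. *AGO3* stood 0.54 and *AGO6* 0.47 log2 units above the shift. Both genes were below 1 CPM in both sets, so they are not among the genes behind it. *AGO8* was at the lowest value of both tables, so its difference, 0.32 log2 units above the shift, is that of the lowest values. *AGO1*, *AGO2*, *AGO4*, *AGO5*, *AGO7* and *AGO9* lay between -0.11 and 0.08 log2 units of the shift.

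The tissue was checked against floral genes. All 8 bud markers reached 1 CPM in the set of 7 mutants, and 6 of 8 did in the *rdr3* set, where *SPL/NZZ* (-0.75 log2 CPM) and *DMC1* (-0.46 log2 CPM), of the early germ line, did not. Relative to the median shift of sense total RNA, 7 of the 8 were higher in the set of 7 mutants, and *AMS* lay at -0.25. The largest were 0.62 log2 units for *AP3* and 0.63 for *DMC1*. *SPL/NZZ* and *DMC1*, below 1 CPM in the *rdr3* set, are not among the genes behind this shift. The part of the bud markers in the difference of *AGO10* between the sets was not tested. None of the 4 root and maturing seed markers reached 1 CPM in either set. In bulk buds, fewer cells of a type and less RNA per cell cannot be told apart.

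*AGO1* and *AGO2* had the most antisense smRNA of the family. In the set of 7 mutants, *AGO1* had 3.12 log2 CPM (8.67 CPM) of antisense and 2.25 log2 CPM (4.77 CPM) of sense smRNA. *AGO2* had 3.51 log2 CPM (11.4 CPM) of antisense and -0.96 log2 CPM (0.515 CPM) of sense smRNA. The other 8 members lay between -3.50 and -2.93 log2 CPM on the antisense strand, where the lowest value of the table was -4.14. *AGO1* and *AGO2* together held 96.0% of the summed antisense CPM of the family in the set of 7 mutants and 74.2% in the *rdr3* set. On the sense strand they held 64.6% in the set of 7 mutants and 41.5% in the *rdr3* set. These shares include the floor that members with few reads carry.

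In the set of 7 mutants, antisense smRNA at or above the level of *AGO2* was found at 0.795% of all genes (267 genes). At or above that of *AGO1* it was found at 0.964% (324 genes). In the *rdr3* set these shares were 1.60% (537 genes) and 2.60% (872 genes). Of the family, 2 of 10 genes reached 1 CPM of antisense smRNA in the set of 7 mutants, beside 4.92% of all genes. For sense smRNA, *AGO1* alone of the 10 did, beside 7.69% of all genes.

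On the sense strand the other 8 members lay between -2.96 and -0.45 log2 CPM in the set of 7 mutants. *AGO4* (-0.45 log2 CPM), *AGO10* (-0.68 log2 CPM) and *AGO8* (-1.17 log2 CPM) were the highest of them in this set. In the *rdr3* set the order differed: *AGO4* stood at -3.33, *AGO9* at -3.43, *AGO10* at -3.59 and *AGO8* at -4.82 log2 CPM, where the lowest value of the table was -5.28. *AGO4* and *AGO10* also had the highest transcript levels after *AGO1*, whereas *AGO8* stood at the lowest value of the transcript tables. smRNA inserts of up to 50 nt can hold fragments of mRNAs, and the sizes of these reads were not analysed here.

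Antisense and sense tables were normalised separately, and the strand difference was centred on the reads that aligned to several places, which are the same reads in both tables. Antisense minus sense was 3.86 log2 units at *AGO2*, a 14.6-fold excess, and 0.26 log2 units at *AGO1*. The difference was negative in the other 8 members, from -3.46 to -0.83 log2 units. The lowest values themselves differ, at -4.14 log2 CPM for antisense and -3.86 for sense, and enter the difference of members with few reads. *AGO6*, at -0.83, stood 0.95 log2 units above the lowest antisense value and 0.90 above the lowest sense value. Its sign can therefore not be read as less antisense than sense smRNA. *AGO3*, at -1.42, stood 0.97 log2 units above the lowest antisense value and 1.51 above the lowest sense value. *AGO7*, at -1.55, stood 0.83 and 1.51 log2 units above them. The signs of *AGO3* and *AGO7* are therefore uncertain too. In the set of 7 mutants, 25 of the 33601 genes (0.0744%) had a strand difference as large as that of *AGO2* or larger, itself included. In the *rdr3* set 102 genes (0.304%) did. Genes near the lowest values are among the 33601. Over the 1468 genes with 1 CPM on both strands, the median difference was -0.87 log2 units.

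All 10 members had lower smRNA levels on both strands in the *rdr3* set than in the set of 7 mutants. The lowest values of the tables were lower there too. They were -5.29 against -4.14 log2 CPM for antisense smRNA and -5.28 against -3.86 log2 CPM for sense smRNA. For members near them, the difference between the sets is partly or wholly that of the lowest values. Over genes at 1 CPM in both sets, the set of 7 mutants was a median of 3.39 log2 units higher for antisense smRNA (258 genes) and 3.57 log2 units higher for sense smRNA (404 genes). In the antisense smRNA tables, reads with more than 1 alignment took 82.0% of all CPM in the set of 7 mutants and 97.6% in the *rdr3* set. Their part in the levels was not tested.

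*AGO2* still had the most antisense smRNA of the family in the *rdr3* set, at -1.17 log2 CPM (0.443 CPM), with -3.61 log2 CPM of sense smRNA. *AGO1* had -1.89 log2 CPM of antisense and -1.88 log2 CPM of sense smRNA. The centred strand difference was 2.44 log2 units at *AGO2* (5.41-fold) and -0.01 at *AGO1*. No member reached 1 CPM on either strand. *AGO1* and *AGO2* are therefore not among the 258 genes behind the median shift, and their differences between the sets were not set against it.

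**Figure D2:**
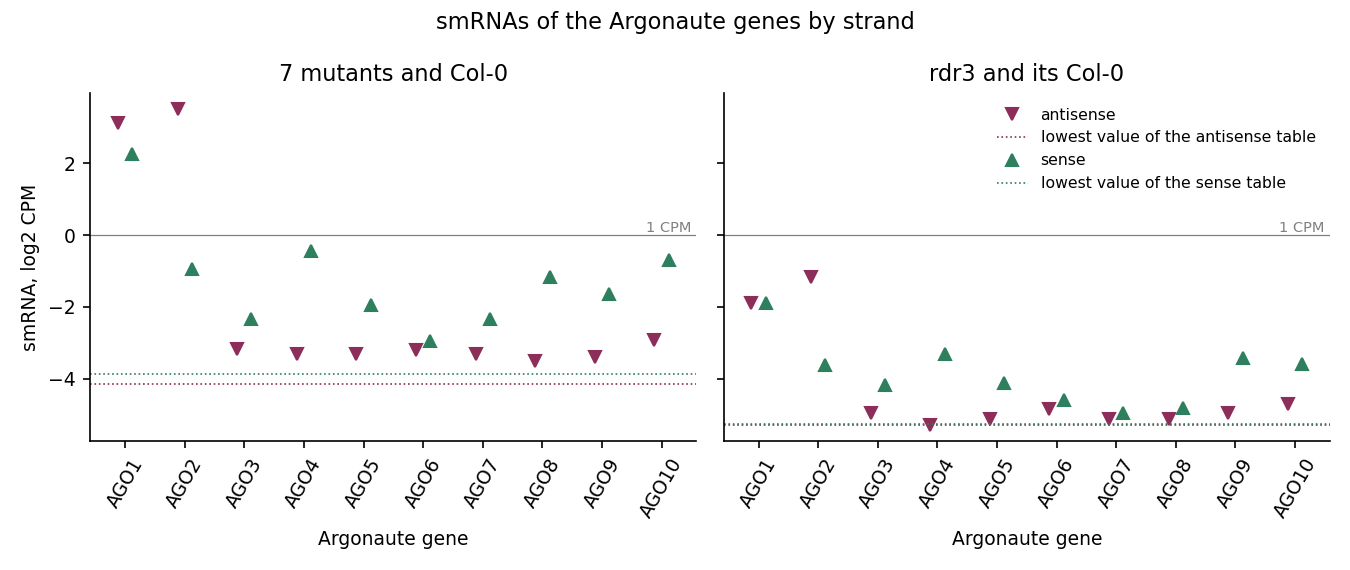
smRNA of each Argonaute gene in log2 CPM (y axis) on the antisense (downward triangles) and sense (upward triangles) strands, as the authors' mean over the 7 mutants and Col-0 (left) and over *rdr3* and its Col-0 (right); dotted lines give the lowest value of each table. *AGO1* and *AGO2* are the only members with antisense smRNA above 1 CPM on the left, at 3.12 and 3.51 log2 CPM.

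Along the genes, smRNAs were counted in fixed bins of 500 nt, without regard to strand and on a scale of their own. The counts by strand set aside reads that aligned to several places, and the bin counts may hold them. In the set of 7 mutants *MIR168b* had 2.99 log2 CPM of sense smRNA as a gene and 11.48 log2 CPM in its bin. The reads of a bin are thus not necessarily those counted by strand for the gene. *AGO2* spanned 8 bins, and its smRNAs lay in the last one (chr1:11185001-11185500), at 6.01 log2 CPM (64.3 CPM) in the set of 7 mutants and 2.33 log2 CPM (5.02 CPM) in the *rdr3* set. The other 7 bins had at most -1.49 log2 CPM in the set of 7 mutants and -2.01 log2 CPM in the *rdr3* set. The last bin held 98.0% of the summed CPM of the *AGO2* bins in the set of 7 mutants and 90.6% in the *rdr3* set. It was higher than 99.3% and 99.2% of the 238295 nuclear bins.

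This bin holds the miR403 window shown above, which ends 153 nt before the end of the gene. The reverse complement of the window differs from miR403 at 1 position, and the authors allowed 2 mismatches per read, so reads of miR403 and its variants can align to the antisense strand there. How many of the reads in this bin were microRNA reads was not tested. miR403 itself was abundant: the bin of *MIR403* (AT2G47275, the gene that encodes it) stood at 12.05 log2 CPM in the set of 7 mutants and 6.95 log2 CPM in the *rdr3* set. *AGO3* has a miR403 window with 3 mismatches and no such bin. Its highest bin stood at -2.79 log2 CPM in the set of 7 mutants and -3.95 log2 CPM in the *rdr3* set, near its 5′ end. The *AGO3* bin with the miR403 window stood at -2.82 and -4.35 log2 CPM, nearly as high as the highest in the set of 7 mutants.

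*AGO1* spanned 15 bins. Its highest bin (chr1:17891001-17891500) starts 28 nt downstream of the miR168 window and stood at 3.24 log2 CPM (9.46 CPM) in the set of 7 mutants, which was 62.8% of the summed CPM of the gene. The bin with the window itself had -1.27 log2 CPM and the bins further upstream -2.74 and -2.54 log2 CPM. Downstream, the next 4 bins had 1.10, -0.58, -0.83 and -2.87 log2 CPM. In the set of 7 mutants, smRNAs of *AGO1* thus lay mainly on the 3′ side of the window.

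In the *rdr3* set the same *AGO1* bin was the highest of the gene, at -2.12 log2 CPM, and held 23.8% of the summed CPM. The next bin had -2.98 log2 CPM and the one after -4.22 log2 CPM, which was also the level of the bin with the window. Further downstream the level was again higher, at -3.73 and -3.88 log2 CPM in bins 12 and 13 of the gene. The bin was higher than 95.4% of nuclear bins in the set of 7 mutants and 88.7% in the *rdr3* set. *MIR168a* (AT4G19395) and *MIR168b* (AT5G45307), which encode miR168, had bins at 11.85 and 11.48 log2 CPM in the set of 7 mutants and at 5.56 and 5.14 log2 CPM in the *rdr3* set.

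*AGO8* and *AGO10* each had 1 bin at 1 CPM or more in the set of 7 mutants. That of *AGO8* (chr5:7140001-7140500), near its 3′ end, stood at 0.43 log2 CPM in the set of 7 mutants and -0.97 log2 CPM in the *rdr3* set. It was higher than 85.0% and 93.3% of nuclear bins. The bin just beyond the 3′ end, on the side of AT5G21020, stood at -0.22 and -3.61 log2 CPM. AT5G21020 lies 155 nt from *AGO8*, nearer than this bin, so the bin may hold smRNA of AT5G21020.

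The *AGO10* bin (chr5:17612501-17613000) stood at 0.78 log2 CPM in the set of 7 mutants and at -4.67 log2 CPM in the *rdr3* set, where it was no longer the highest of the gene. The bins just outside *AGO10* were far higher than any within it. They stood at 4.17 log2 CPM upstream and 4.49 log2 CPM downstream in the set of 7 mutants, and at 0.94 and 0.87 log2 CPM in the *rdr3* set. *AGO10* thus lay between a higher bin on each side. In the set of 7 mutants its bins other than the highest had a median of -3.25 log2 CPM, against -3.57 for all nuclear bins. No annotated gene lies in the bins outside it, the nearest genes being AT5G43800 5724 nt and AT5G43822 1832 nt away. Transposable elements were not looked up there.

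*AGO3*, *AGO4*, *AGO5*, *AGO6*, *AGO7* and *AGO9* had no bin above -2.70 log2 CPM in the set of 7 mutants or above -3.87 log2 CPM in the *rdr3* set. In these genes the highest bin held 11.1% to 16.0% of the summed CPM in the set of 7 mutants and 9.36% to 17.2% in the *rdr3* set. Of all nuclear bins, 16.9% reached 1 CPM in the set of 7 mutants and 4.01% in the *rdr3* set.

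**Figure D3:**
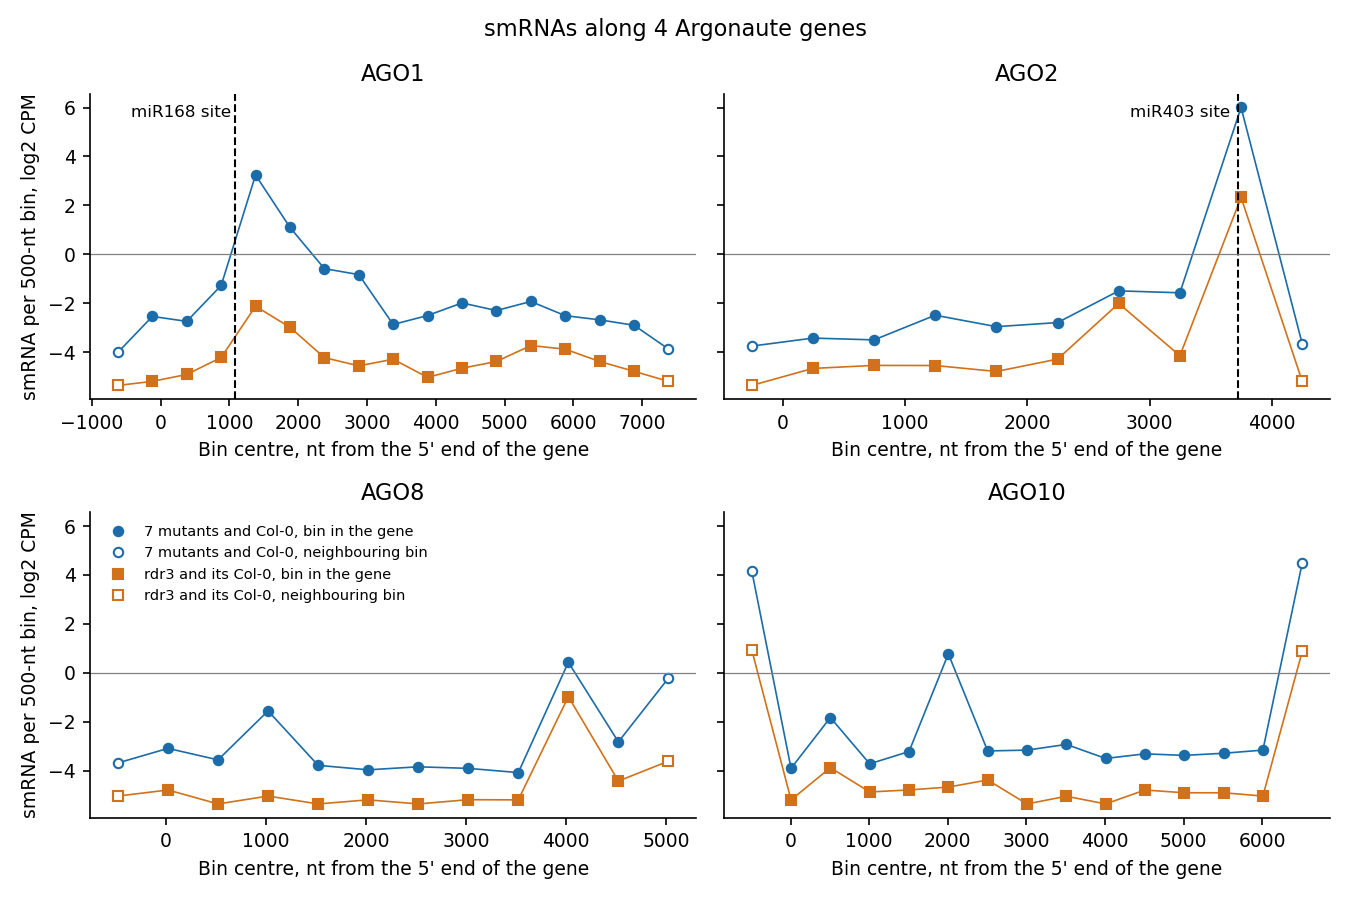
smRNA per 500-nt bin in log2 CPM (y axis) against the distance of the bin centre from the 5′ end of the gene in nt (x axis) for *AGO1*, *AGO2*, *AGO8* and *AGO10*, as the authors' mean over the 7 mutants and Col-0 (circles) and over *rdr3* and its Col-0 (squares); open symbols are the bins next to the gene and dashed lines the microRNA windows. The *AGO2* maximum of 6.01 log2 CPM lies in the bin of the miR403 window and the *AGO1* maximum of 3.24 log2 CPM in the bin after the miR168 window.

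Antisense total RNA of the family was at or next to the lowest value of the table in the set of 7 mutants. *AGO1*, *AGO2*, *AGO3*, *AGO4*, *AGO5* and *AGO9* stood at the lowest value, -1.77 log2 CPM, and *AGO6*, *AGO7*, *AGO8* and *AGO10* at most 0.08 log2 units above it. No member reached 1 CPM, beside 0.908% of all genes.

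In the *rdr3* set, antisense total RNA stood at 0.73 log2 CPM (1.66 CPM) for *AGO2* and at -0.40 log2 CPM (0.759 CPM) for *AGO1*. The other 8 members lay between the lowest value, -2.73 log2 CPM, and -2.15 log2 CPM. *AGO2* had more antisense total RNA than 98.4% of genes and *AGO1* more than 96.3%, and 2.75% of all genes reached 1 CPM. *AGO5*, *AGO6*, *AGO7* and *AGO8* were slightly above the lowest value, and *AGO3*, *AGO4*, *AGO9* and *AGO10* were at it.

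The microRNA genes moved with this difference between the sets. Sense total RNA of *MIR403* stood at -1.77 log2 CPM in the set of 7 mutants and 7.71 log2 CPM in the *rdr3* set. For *MIR168a* the values were 0.07 and 4.91 log2 CPM, and for *MIR168b* -1.77 and 0.00 log2 CPM. All 872 genes with as much antisense smRNA as *AGO1* or more in the *rdr3* set had antisense total RNA above the lowest value, beside 41.4% of all genes. In the set of 7 mutants 105 of 324 such genes (32.4%) did, beside 28.7% of all genes. The part of small RNAs in the total RNA libraries of the *rdr3* set was not tested.

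**Figure D4:**
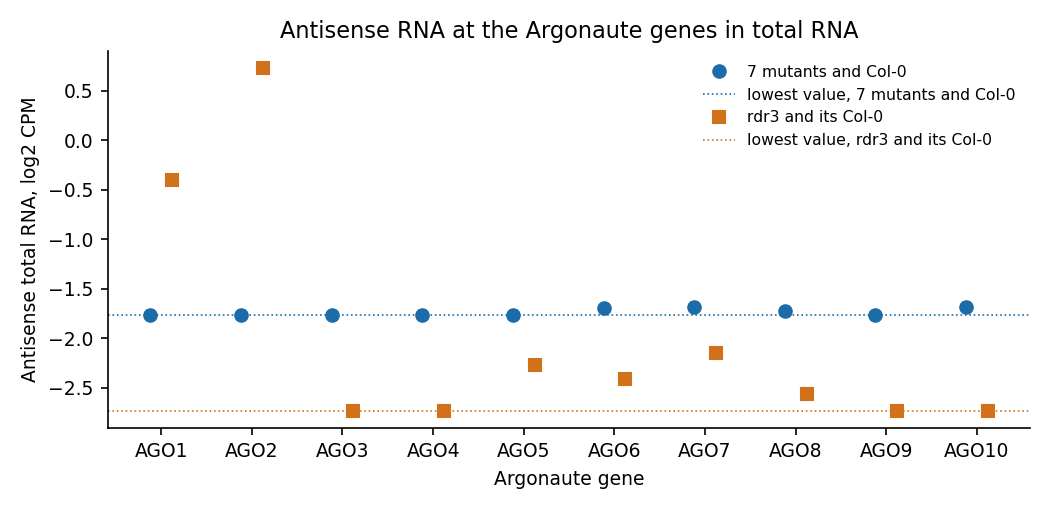
Antisense total RNA of each Argonaute gene in log2 CPM (y axis), as the authors' mean over the 7 mutants and Col-0 (circles) and over *rdr3* and its Col-0 (squares); dotted lines give the lowest value of each table. In the *rdr3* set *AGO2* stands at 0.73 and *AGO1* at -0.40 log2 CPM, and the other members at or near the lowest value.

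Of 23 other genes of the small RNA pathways, 22 reached 1 CPM of sense total RNA in the set of 7 mutants and 19 in the *rdr3* set. The shares of all genes were 43.1% and 37.1%. Per kb, none of the 23 was above *AGO1* in either set. The highest in the set of 7 mutants was *SE*, a zinc-finger partner of *DCL1*, at 1.68 log2 CPM per kb, next to the uridylyltransferase *URT1* at 1.68 and the F-box gene *FBW2*, which acts on AGO1, at 1.41. The lowest were *RDR5* at -1.79 and *RDR4* at -1.70 log2 CPM per kb. The median was 0.15 log2 CPM per kb for these genes and 0.42 for the *AGO* genes, beside -0.57 for all genes with a gene model. The *RDR* and *SGS3* values of the set of 7 mutants include, except for *RDR3*, 2 libraries of plants mutated in the gene itself.

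Antisense smRNA reached 1 CPM in the set of 7 mutants at 1 of the 23 genes, beside 4.92% of all genes. This was *DCL1*, which cuts microRNAs from their precursors, at 1.72 log2 CPM. It had -2.35 log2 CPM in the *rdr3* set. Its antisense total RNA stood at -1.73 log2 CPM in the set of 7 mutants and -0.28 log2 CPM in the *rdr3* set, as at *AGO1*. On the sense strand 2 of the 23 reached 1 CPM in the set of 7 mutants, beside 7.69% of all genes. These were *DCL1* (0.66 log2 CPM) and *NRPD1* (0.38 log2 CPM), the largest subunit of RNA polymerase IV.

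The genes most like each expressed member were those with the smallest mean absolute difference over its 4 log2 CPM values (sense and antisense, total RNA and smRNA) in the set of 7 mutants. For *AGO2* they were *SPL10* (0.45 log2 units), *SPP2* (0.53) and *SPL2* (0.60), each with 3.76 to 4.65 log2 CPM of antisense smRNA and at most -1.53 log2 CPM of sense smRNA. For *AGO1* they were AT5G07410 (0.60), AT3G41761 (0.60) and *LHCA2* (0.63). *AGO1* and *AGO2* had no neighbour nearer than 0.45 log2 units.

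The other expressed members had much closer neighbours. For *AGO4* they were *AXS1*, AT1G79990 and *ACLB-1* (0.05 log2 units each). *AGO5* was nearest to AT3G42850, AT2G05120 and *EXPA15* (0.02 each), *AGO7* to *GSNAP*, AT5G19485 and AT1G77620 (0.03 to 0.04). *AGO9* was nearest to *URT1* (AT2G45620), *APY2* and *MAP70-2* (0.02 to 0.03), and *AGO10* to *ACR11*, *GSL05* and *VCS* (0.06 to 0.08). These members had antisense values near the lowest of both antisense tables, so that their profiles rest mainly on the sense strand.

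No annotated gene overlapped a member. AT1G48405 lies 18 nt from *AGO1* and *ENODL20* 16 nt from *AGO4*, and neither reached 1 CPM of sense total RNA or of smRNA in either set. *COP1*, 359 nt from *AGO6*, had 3.41 and 2.21 log2 CPM of sense total RNA in the set of 7 mutants and the *rdr3* set, against -0.06 and -1.19 log2 CPM for *AGO6* itself.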

How the data were processed

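smRNA-seq and total RNA-seq reads (50 nt, single-end) were trimmed with cutadapt, mapped by the authors to TAIR10 with TopHat (2 mismatches, up to 100 alignments per read), counted by strand over genes and transposable elements with HTSeq and over 500-nt bins with bedtools, and tested by the authors with edgeR; tool versions are not given in the sources used here. The 40 deposited tables hold a mean abundance, which the authors gave as log2 CPM, and 3 columns of each mutant's comparison with Col-0 (log2 fold change, p-value and false discovery rate). The comparison columns hold the study's findings and were not used. Sequencing depth per library is not known, so no interval is given. Replicates were 2 libraries per genotype, which enter only through the authors' mean. The *rdr3* total RNA controls were taken to be the second pair of Col-0 libraries, since their labels do not match the names given.

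Levels were converted to CPM, divided by the length of the longest annotated transcript, ranked among 33601 gene rows and counted at 1 CPM. The 5 HTSeq totals were left out of ranks; reads aligned to several places, ambiguous reads and reads outside features made up 76.8%, 0.115% and 4.53% of the summed CPM of sense total RNA in the set of 7 mutants. The authors' edgeR means include a small prior count, which can shrink differences between low genes within a table. The lowest values differ between sets and strands, so differences of low genes across tables also hold those of the lowest values. The tables that count the annotated strand were taken as sense, where *AGO1* total RNA stood at 5.52 log2 CPM, against -1.77 in the others. Coordinates are from RefSeq TAIR10.1, whose nuclear chromosomes need the same number of bins as the files hold; 64790 features and 239338 bins were read. Named genes were the members, the pathway and microRNA genes, the tissue markers, the 3 nearest profiles of each member at 1 CPM and the adjoining genes. The members and lists were chosen with earlier results of these data known. Site search and nearest profiles were tested on simulated data. Alternatives were the *rdr3* tables, the exon union or no length, no centring, and minimums of 0.5 and 2 CPM. Python 3 with pandas and numpy was used.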

Additional observations from a re-analysis of the deposited data

How the results depend on the processing

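The levels are means over mutant and Col-0 libraries that the authors computed, so they show neither a genotype nor a spread, and values near the lowest of a table carry no level. No paired analysis was possible because the tables hold no value per library, and leaving out each replicate was not run for the same reason. Changes of up to 1.5-fold, or 10 percentile points, were taken as no change. The number of members at 1 CPM or more was 7 in sense total RNA, and 9 at 0.5 CPM, 7 at 2 CPM and 7 in the *rdr3* tables. In antisense smRNA it was 2 at all minimums and 0 in the *rdr3* tables. In sense smRNA it was 1, and 4 at 0.5 CPM, 1 at 2 CPM and 0 in the *rdr3* tables. In antisense total RNA it was 0 at all minimums and 1 in the *rdr3* tables. With the exon union as length, all 10 transcript levels per kb stayed within 1.5-fold. Without a length, *AGO10* (4.23 log2 CPM) passed *AGO4* (4.20) and *AGO3* (-0.04) passed *AGO6* (-0.06). Without centring, each smRNA strand difference was 0.60 log2 units higher and kept its sign, with *AGO1* at 0.86 and *AGO2* at 4.46. All 10 thus moved by more than 1.5-fold. In the *rdr3* tables *AGO1* changed sign, at -0.01, and the other 9 kept theirs. Of these 10 differences, 8 moved by more than 1.5-fold. There *AGO6*, *AGO7* and *AGO8* stood at most 0.68 log2 units above the lowest value on either strand, so their signs cannot be read. Without centring, the 10 total RNA strand differences stayed within 1.5-fold. In the *rdr3* tables the percentile of antisense smRNA among genes moved by more than 10 points for *AGO4*, *AGO5*, *AGO7* and *AGO8*. Among genes above the lowest value, all 10 percentiles stayed within 10 points.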
